A study of Homo sapiens with 4 samples.

Results

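The genes described here are 35 genes of the NRF2 antioxidant response, of glutathione and thioredoxin metabolism and of the peroxiredoxin family. They were chosen by name from what is known of the pathway, with earlier results of these data known, and all 35 were found among the 50653 genes of the deposited expression table. Both cell lines, BT-20 and MDA-MB-468, were derived from human triple-negative breast cancers and are long established. Each line carried, after lentiviral transduction and puromycin selection, either a control short hairpin RNA (shRNA) or an shRNA against QPRT, the enzyme that makes nicotinic acid mononucleotide from quinolinic acid on the route to NAD+. Total RNA of each of the 4 cell populations was sequenced as 1 library, so the groups are BT-20 control shRNA, BT-20 QPRT shRNA, MDA-MB-468 control shRNA and MDA-MB-468 QPRT shRNA, with 1 library in each. The unit throughout is FPKM, the fragments of a gene scaled to its transcript length and to the fragment total of the library. Per the study's methods, BT-20 was grown in Eagle's Minimum Essential Medium and MDA-MB-468 in Leibovitz's L-15 medium, so the cell line and the medium cannot be told apart.

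NRF2, the product of NFE2L2, is a transcription factor that KEAP1 holds for degradation in unstressed cells. Oxidants and electrophiles modify KEAP1, NRF2 then accumulates, pairs with small MAF proteins and binds antioxidant response elements near genes that reduce quinones, make and recycle glutathione, supply NADPH and export conjugates. The peroxiredoxins are thiol peroxidases that remove hydrogen peroxide and are kept reduced mostly by thioredoxin, and PRDX1 is the family member most often named as an NRF2 target.

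Stretches of promoter that hold the core of the antioxidant response element are shown for the members in which it was found. RefSeq promoter windows of GRCh38.p14, which run from 250 bases before to 50 bases after a start site, were at hand for 25 of the 35 members in 35 windows. The core TGACNNNGC, searched on both strands, was found in 7 of these 35 windows (20%), which belong to 6 genes, and in 13.3% of all 35116 windows. The form TGACTCAGC was found in 2 of the 35 windows (5.71%) and in 0.561% of all windows. By its letters this form always holds a match to the AP-1 motif TGANTCA. Each stretch below is 29 bases, written 5′ to 3′ on the strand on which the motif reads as TGACNNNGC, with the motif in capitals. The stretch of ME1 is at chr6:83431170-83431198 (− strand), 137 bases before the start site, that of GSTP1 at chr11:67583736-67583764 (+ strand), that of GCLM at chr1:93909446-93909474 (+ strand), that of TXNRD1 at chr12:104215670-104215698 (+ strand), those of KEAP1 at chr19:10502807-10502835 (− strand) and chr19:10502784-10502812 (+ strand), and that of GPX2 at chr14:64942849-64942877 (+ strand).
ME1: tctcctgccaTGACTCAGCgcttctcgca
GSTP1: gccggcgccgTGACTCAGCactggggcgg
GCLM: tggaagacaaTGACTAAGCagaaatcgta
TXNRD1: acacgggctaTGACTTCGCtgttgtcacc
KEAP1 first: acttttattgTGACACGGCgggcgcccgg
KEAP1 second: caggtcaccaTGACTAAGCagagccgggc
GPX2: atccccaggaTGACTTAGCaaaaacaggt
A match is a run of letters and not a measured binding site. The stretches of GSTP1, GCLM, KEAP1 and GPX2 overlap an annotated exon, and those of ME1 and TXNRD1 do not. ME1 and TXNRD1 had further matches, which are not shown. The genes with a match did not share a direction between the cell lines, since ME1, GCLM and TXNRD1 were higher in BT-20, GSTP1 and KEAP1 were higher in MDA-MB-468, and GPX2 had at most 19 fragments in any library.

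QPRT itself, the target of the shRNA, was at 249 FPKM with control shRNA and 40.5 FPKM with QPRT shRNA in BT-20, and at 117 and 18.3 FPKM in MDA-MB-468, so both knockdown libraries matched their labels. The keratins and EPCAM of breast epithelium were high in all 4 libraries. Of the receptors low in triple-negative lines, PGR was listed at 0, but ESR1 and ERBB2 were above 0 in every library. In BT-20 control and QPRT shRNA, ESR1 was at 5.51 and 5.76 FPKM and ERBB2 at 129 and 122 FPKM. In MDA-MB-468 control and QPRT shRNA, ESR1 was at 1.87 and 1.05 FPKM and ERBB2 at 58.1 and 50.7 FPKM. RB1 and SMAD4, which are lost in MDA-MB-468, were at most 1.96 and 0.279 FPKM in its libraries, and CDKN2A, which is deleted in BT-20, was at most 1.01 FPKM there. The libraries corresponded to 10321991 to 10945946 fragments. All 15 markers of intestinal epithelium were listed above 0 in both control shRNA libraries and were lower with QPRT shRNA in both lines, with a summed level of 63.8 and 30.1 FPKM in the BT-20 control and QPRT shRNA libraries and of 147 and 41.1 FPKM in the MDA-MB-468 ones. Summed markers of gastric epithelium (14.8 and 4.11 FPKM, then 30.4 and 4.29 FPKM) and of plasma cells (32.2 and 15.2 FPKM, then 76.0 and 15.1 FPKM) moved the same way. In BT-20, 6 of 7 gastric and 3 of 4 plasma cell markers were lower, and in MDA-MB-468 all were. The 4 fibroblast markers were lower in both lines. Those of liver, macrophages, adipocytes, lymphocytes and endothelium were not all lower in either line. In bulk RNA, fewer cells of a type and less RNA per cell cannot be told apart. Whether the intestinal, gastric and plasma cell RNA came from the cultures or from another sample was not tested.

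The NRF2 target genes were more abundant in BT-20. The members held 1.90% and 1.66% of all FPKM in the BT-20 libraries and 0.678% and 0.741% in the MDA-MB-468 libraries. Much of this gap came from NQO1, FTL and AKR1B10. Together they made up 7799 of the members' 14737 FPKM in BT-20 control shRNA and 514 of 5118 FPKM in MDA-MB-468 control shRNA. With QPRT shRNA they made up 6344 of 12451 FPKM in BT-20 and 626 of 5675 FPKM in MDA-MB-468. Of the 33 members with a mean of at least 1 FPKM, 17 were higher in BT-20 by limma at an adjusted p under 0.05, among them NQO1, FTL, AKR1B10, AKR1C3 and TXNRD1, and 5 were higher in MDA-MB-468, namely GSTP1, AKR1C1, KEAP1, PRDX4 and SOD2. The 17 are 51.5% of the members tested, against 24.4% of the 14321 genes tested that were higher in BT-20, and the 5 are 15.2%, against 30.7% that were higher in MDA-MB-468; in either direction 55.1% of all genes passed. The median difference, MDA-MB-468 minus BT-20 on the log2(FPKM + 1) scale, was -0.67 over the members and 0.099 over all genes tested. Both BT-20 libraries lay above both MDA-MB-468 libraries for 21 members (34.7% of all genes), the reverse held for 7 (42.8%), and the lines overlapped for CAT, FTH1, GPX1, GSR and PRDX5.

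This fit treated the 2 libraries of a line, which carry different shRNAs, as its replicates, with 1 residual degree of freedom per gene. The prior degrees of freedom were infinite. A gene's standard error was thus set by genes of like expression, not by its own spread. No separate cultures stand behind a p. In simulated data the same fit called unchanged genes of few fragments too often. GSTP1 in BT-20 and AKR1C3 and ABCC2 in MDA-MB-468 had few fragments in that line only. Whether the simulated result holds for such genes was not tested. The simulation also changed a far smaller share of genes than differed between these lines. Without the BT-20 control shRNA library 11 members instead of 17 were called higher in BT-20. A fit that leaves out a library also has no shRNA term, since 3 libraries could not carry both, and its lone library is assumed to vary like the pair of the other line. With no filter on low values limma called 0 members and 0 of all 50626 genes, where 20 members and 7482 genes had an unadjusted p under 0.05, while limma-voom on recovered fragments called 22 members.

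**Figure D1:**
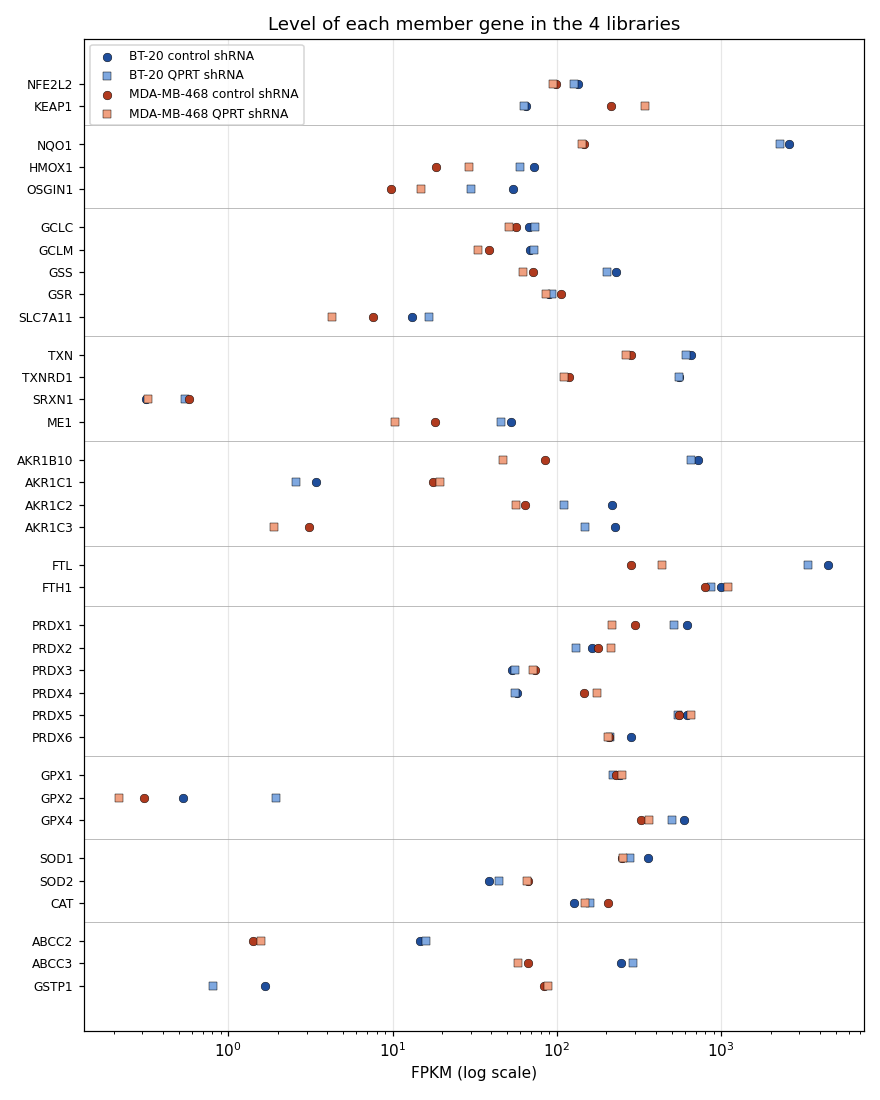
Level of each of the 35 genes in the 4 libraries. The horizontal axis is FPKM on a log scale, circles are control shRNA, squares are QPRT shRNA, and blue is BT-20 and red MDA-MB-468; lines separate the roles. NQO1 and FTL reach 2597 and 4478 FPKM in BT-20 control shRNA and 147 and 282 FPKM in MDA-MB-468 control shRNA, while GSTP1 lies on the opposite side with 1.66 and 83.9 FPKM.

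The regulators themselves did not follow one pattern. Gene coordinates here and below are those of GRCh38. NFE2L2 (chr2:177227595-177392697, − strand) was at 135 FPKM in BT-20 control shRNA, 126 FPKM in BT-20 QPRT shRNA, 98.2 FPKM in MDA-MB-468 control shRNA and 95.1 FPKM in MDA-MB-468 QPRT shRNA. Both BT-20 libraries were above both MDA-MB-468 libraries, but the difference of -0.43 ± 0.20 (SE, log2) did not pass the limma threshold (adjusted p = 0.0536), although it did so when genes under a mean of 5 FPKM were left out (0.0462), without the shRNA term (0.0295) and with the trend on GC content and length removed (-0.60, 0.00491). KEAP1 (chr19:10486120-10503741, − strand), the adaptor that presents NRF2 to its ubiquitin ligase, was at 65.3, 63.2, 215 and 346 FPKM in the same order. Every MDA-MB-468 value of KEAP1 was more than 3 times any BT-20 value, and the mean was 4.36 times higher in MDA-MB-468 (log2 difference 2.07 ± 0.20, limma adjusted p = 1.72e-24). Other annotated genes overlap both regulators on the same strand, AC011461.1 for KEAP1 and AC019080.1 among those for NFE2L2, so reads may be mixed. Same-strand overlaps were also annotated for OSGIN1, GCLC, TXNRD1 and SOD2.

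NQO1 (chr16:69706996-69726951, − strand), the quinone reductase commonly read as a marker of NRF2 activity, was at 2597 and 2298 FPKM in the BT-20 control and QPRT shRNA libraries and at 147 and 143 FPKM in the MDA-MB-468 ones. It was the 18th and 19th highest gene of the BT-20 libraries and the 917th and 942nd of the MDA-MB-468 libraries. The mean was 16.9 times higher in BT-20 (log2 difference -4.06 ± 0.19, limma adjusted p = 1.17e-100). HMOX1, which breaks down heme and is also induced by BACH1 loss, was at 72.7, 59.3, 18.5 and 29.4 FPKM, and OSGIN1, an oxidative stress-induced growth inhibitor, at 53.7, 29.8, 9.74 and 14.8 FPKM. Both genes were higher in BT-20 without overlap, by 2.76 and 3.40 times (log2 differences -1.45 and -1.66). Both calls were lost without the BT-20 control shRNA library (-1.31 and -1.24, limma adjusted p = 0.0679 and 0.0674), and that of OSGIN1 also without the MDA-MB-468 control shRNA library (-1.38, 0.0785).

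In glutathione synthesis, the largest line difference was that of the last enzyme. GSS, glutathione synthetase (chr20:34928433-34956027, − strand), was at 229 and 202 FPKM in BT-20 and at 71.9 and 61.8 FPKM in MDA-MB-468, 3.22 times higher in BT-20 (limma adjusted p = 3.38e-16). The subunits of glutamate-cysteine ligase, the rate-limiting enzyme, differed less. GCLM, the modifier subunit, was at 68.4, 72.3, 38.8 and 33.1 FPKM in the order given above (log2 difference -0.95 ± 0.21, limma adjusted p = 2.21e-05), whereas GCLC, the catalytic subunit, was at 67.4, 73.7, 56.2 and 50.8 FPKM and did not pass (-0.39 ± 0.21, adjusted p = 0.0944), though it did with the GC and length trend removed (-0.55, 0.00838). The level of GCLC was thus close to that of GCLM in BT-20 (ratios of FPKM 0.986 and 1.02) and above it in MDA-MB-468 (1.45 and 1.54). SLC7A11, the cystine carrier of system xc-, was lower than the synthesis genes in every library (13.1, 16.6, 7.56 and 4.27 FPKM) and was 2.50 times higher in BT-20 (log2 difference -1.23 ± 0.26). That call was lost without the BT-20 control shRNA library (-1.39, limma adjusted p = 0.0792), the BT-20 QPRT shRNA library (-1.07, 0.123) or the MDA-MB-468 QPRT shRNA library (-0.88, 0.0775), with the direction kept. GSR, which reduces glutathione disulfide, lay between 85.9 and 106 FPKM in all 4 libraries and the lines overlapped.

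Of the thioredoxin and NADPH supply members, TXNRD1, TXN and ME1 were higher in BT-20. Other thioredoxin and glutaredoxin genes, described below, did not share a direction. TXNRD1, thioredoxin reductase 1 (chr12:104215779-104350305, + strand), was at 557 and 552 FPKM in BT-20 and 119 and 110 FPKM in MDA-MB-468, 4.83 times higher in BT-20 (limma adjusted p = 8.29e-31). Its substrate TXN was at 657, 612, 281 and 264 FPKM and 2.33 times higher in BT-20. ME1, the cytosolic malic enzyme that yields NADPH (chr6:83210389-83431071, − strand), was at 52.6, 45.6, 18.0 and 10.4 FPKM and 3.46 times higher in BT-20 (log2 difference -1.76, limma adjusted p = 4.86e-14), a call lost without the BT-20 control shRNA library although the difference stayed at -1.66 (0.0571). SRXN1, the sulfiredoxin that repairs over-oxidized peroxiredoxins, stood apart as listed at 0.314, 0.544, 0.576 and 0.323 FPKM, from 9, 16, 17 and 9 fragments, in an annotation where another gene, AL121758.1, overlaps it on the same strand. It was not tested, and at this depth no difference between its libraries was detectable.

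The aldo-keto reductases, NADPH-dependent enzymes that reduce carbonyls and steroids, differed between the lines in both directions. AKR1B10 (chr7:134527592-134541408, + strand) was at 724 and 655 FPKM in BT-20 and 84.5 and 46.8 FPKM in MDA-MB-468, 10.5 times higher in BT-20 (limma adjusted p = 1.77e-68). AKR1C3 (chr10:5035354-5107686, + strand) had the largest difference of any member, with 227 and 148 FPKM in BT-20 and 3.09 and 1.89 FPKM in MDA-MB-468, a mean 75.2 times higher in BT-20 (log2 difference -5.74 ± 0.23, adjusted p = 9.37e-136). AKR1C2 was at 217, 110, 63.8 and 56.6 FPKM, and AKR1C1 (chr10:4963253-4983283, + strand) went the other way with 3.44, 2.56, 17.7 and 19.4 FPKM, 6.18 times higher in MDA-MB-468 (adjusted p = 1.82e-17). AKR1C1 and AKR1C2 have near-identical transcripts, and the split of reads between them is uncertain, so their opposite directions are given as listed. The call of AKR1C2 (log2 difference -1.35) was lost without either MDA-MB-468 library (-1.43, adjusted p = 0.0910 without control shRNA and -1.26, 0.116 without QPRT shRNA). The MDA-MB-468 level of AKR1C3 was 1.33% of that in BT-20. Other genes high in BT-20 were chosen by a low share of that level in either MDA-MB-468 library and read in the remaining library. Their median there was 0.443% of the BT-20 level where control shRNA was read (22 genes). It was 0.253% where QPRT shRNA was read (20 genes). The choice itself favors low medians, so they set no baseline for AKR1C3.

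The ferritin subunits, which store iron, were unlike each other. FTL, the light chain (chr19:48965301-48966878, + strand), was at 4478 and 3392 FPKM in BT-20, where it was the 7th and 10th highest gene, and at 282 and 436 FPKM in MDA-MB-468, 11 times higher in BT-20 (limma adjusted p = 1.89e-74). FTH1, the heavy chain, was at 999, 865, 795 and 1100 FPKM and the lines overlapped. The ratio of light to heavy chain FPKM was 4.48 and 3.92 in the BT-20 libraries, against 0.355 and 0.396 in MDA-MB-468. Both genes have many processed pseudogenes to which their reads could be assigned, which makes their levels less certain than those of most members.

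**Figure D2:**
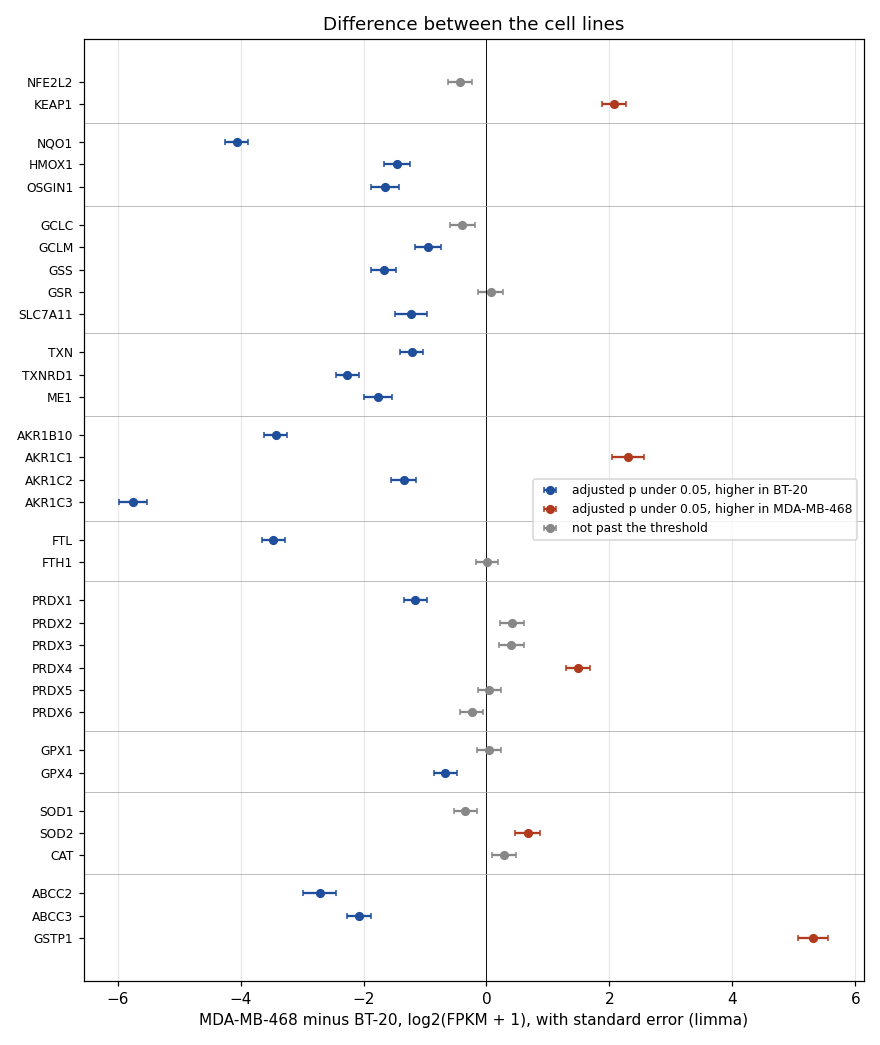
Difference between the lines for the 33 genes tested. The horizontal axis is MDA-MB-468 minus BT-20 in log2(FPKM + 1), points are limma coefficients with their standard error, blue marks the 17 genes higher in BT-20 and red the 5 higher in MDA-MB-468 at an adjusted p under 0.05, and grey the other 11. AKR1C3 at -5.74 and GSTP1 at 5.31 are the extremes, and 4 of the 6 peroxiredoxins are grey.

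The peroxiredoxins did not share the direction of the NRF2 enzymes. PRDX1, a cytosolic member, was at 624, 518, 297 and 217 FPKM in BT-20 control, BT-20 QPRT, MDA-MB-468 control and MDA-MB-468 QPRT shRNA, and was 2.22 times higher in BT-20 (log2 difference -1.16 ± 0.19, limma adjusted p = 5.04e-09), though not without the BT-20 control shRNA library (-1.03, 0.0617). PRDX4, the member of the endoplasmic reticulum, was at 57.1, 55.8, 146 and 175 FPKM and was 2.84 times higher in MDA-MB-468 (1.49 ± 0.20, adjusted p = 1.20e-12). These were the 2 members of the family called, in opposite directions.

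PRDX2, the other main cytosolic member, was at 164, 131, 177 and 215 FPKM (log2 difference 0.41 ± 0.19, limma adjusted p = 0.0621). PRDX3, which is mitochondrial, was at 53.1, 55.4, 73.3 and 71.1 FPKM (0.41 ± 0.21, adjusted p = 0.0831, and 0.0435 without the shRNA term). Both were higher in MDA-MB-468 without overlap and neither passed the threshold in the fit with both terms, and the gene HOOK2 overlaps PRDX2 on the same strand, so their reads may be mixed. PRDX5, found in mitochondria, peroxisomes and cytosol, was at 622, 547, 557 and 652 FPKM, and PRDX6, the 1-cysteine member that uses glutathione, at 284, 210, 208 and 205 FPKM. The lines overlapped for PRDX5, and PRDX6 stood out only in BT-20 control shRNA.

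Summed over the 6 genes the family was at 1804, 1518, 1459 and 1535 FPKM, so 3 of the 4 libraries lay close together and BT-20 control shRNA was highest. The makeup differed more than the sum. PRDX1 and PRDX5 were the highest members of the family in both BT-20 libraries, PRDX1 made up 34.6% and 34.1% of the family there and 20.4% and 14.1% in MDA-MB-468, and PRDX4 made up 3.16% and 3.68% in the BT-20 libraries, against 10.03% and 11.4% in MDA-MB-468.

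**Figure D3:**
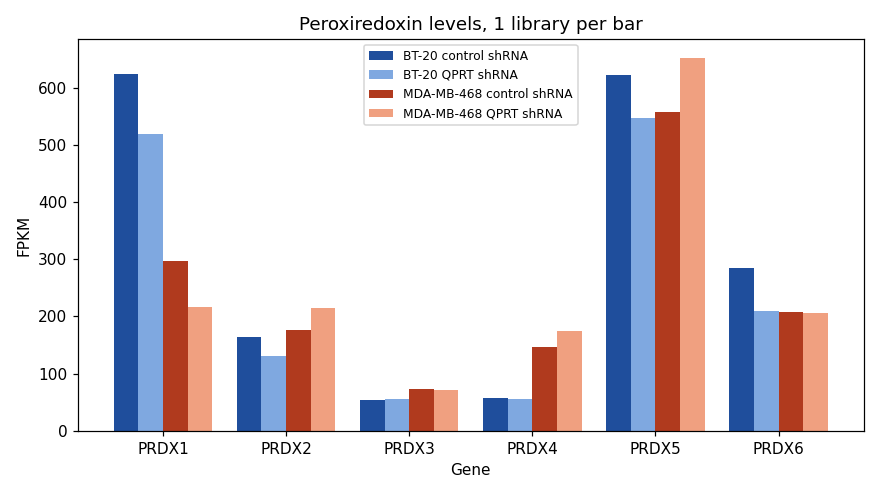
FPKM of the 6 peroxiredoxins, with 1 bar per library and no error bar since each group is 1 library. PRDX1 is highest in the 2 BT-20 libraries (624 and 518 FPKM), PRDX4 is highest in the 2 MDA-MB-468 libraries (146 and 175 FPKM), and PRDX5 lies between 547 and 652 FPKM in all 4.

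The other peroxide and superoxide enzymes were close between the lines. GPX4, the glutathione peroxidase that reduces lipid hydroperoxides, was at 598, 504, 324 and 366 FPKM and was 1.60 times higher in BT-20 (limma adjusted p = 0.00101). SOD2, the mitochondrial superoxide dismutase, was at 38.6, 44.4, 66.9 and 65.8 FPKM and was 1.60 times higher in MDA-MB-468 (adjusted p = 0.00358), in an annotation where WTAP overlaps it on the other strand; whether the counting used strand is not given in the sources used here. Both calls were lost (adjusted p between 0.0505 and 0.0829, with differences of -0.55 to -0.76 for GPX4 and 0.57 to 0.68 for SOD2) without the BT-20 control shRNA library and without either MDA-MB-468 library.

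GPX1, the cytosolic glutathione peroxidase, was at 242, 220, 228 and 249 FPKM, and CAT, which breaks down hydrogen peroxide in peroxisomes, at 128, 160, 206 and 149 FPKM. The lines overlapped for both. SOD1, the copper-zinc superoxide dismutase, was at 359, 280, 248 and 252 FPKM and did not pass (-0.34 ± 0.19, adjusted p = 0.115), though it did with the GC and length trend removed (-0.51, 0.0144), and the BT-20 libraries were the higher ones. GPX2, the gastrointestinal glutathione peroxidase, was listed at 0.528, 1.95, 0.307 and 0.217 FPKM, from 5, 19, 3 and 2 fragments, overlaps CHURC1 on the other strand and was below the mean needed for a test. Its highest value was in BT-20 QPRT shRNA, where the summed intestinal markers were lower than in BT-20 control shRNA. The GPX2 values rest on few fragments, and whether intestinal RNA had a part in them was not tested.

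The conjugating enzyme GSTP1 had the largest difference towards MDA-MB-468. GSTP1, the glutathione S-transferase pi (chr11:67583595-67586656, + strand), was at 1.66 and 0.809 FPKM in BT-20, from about 13 and 7 fragments, and at 83.9 and 88.3 FPKM in MDA-MB-468. The mean was 69.7 times higher in MDA-MB-468 (log2 difference 5.31 ± 0.25, limma adjusted p = 4.01e-100), and the BT-20 level was 1.44% of that in MDA-MB-468. Other genes high in MDA-MB-468 were chosen by a low share of that level in either BT-20 library and read in the remaining library. Their median there was 0.114% of the MDA-MB-468 level where control shRNA was read (23 genes). It was 0.709% where QPRT shRNA was read (28 genes). The choice itself favors low medians, so they set no baseline for GSTP1. The exporters of glutathione conjugates went the other way: ABCC2 (chr10:99782640-99852594, + strand) was at 14.8, 16.0, 1.42 and 1.58 FPKM, 10.3 times higher in BT-20 (adjusted p = 3.71e-22), and ABCC3 (chr17:50634777-50692252, + strand) at 245, 291, 67.1 and 58.1 FPKM, 4.28 times higher in BT-20 (adjusted p = 1.20e-24).

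Further genes of the same pathways were set beside the members. Their lists, like the members, were chosen with earlier results of these data known, so they are no independent check. Of the other NRF2 targets, 20 of 22 were tested, 16 (80%) were higher in BT-20 and 2 were higher in MDA-MB-468, and the median log2 difference was -1.40. TKT, the transketolase of the pentose phosphate pathway, was at 1032, 861, 198 and 212 FPKM. TRIM16L was at 414, 300, 18.8 and 22.5 FPKM, and UGT1A6, a glucuronosyltransferase whose transcripts share exons with other UGT1A genes, at 25.6, 23.0, 0 and 0.0863 FPKM. The 2 targets that were higher in MDA-MB-468 were ABCC4, an exporter (0.0467, 0.0454, 9.10 and 6.63 FPKM), and BLVRA, a biliverdin reductase.

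For lists nearer to regulation and thiol chemistry the shares were nearer to those over all genes, 24.4% higher in BT-20 and 30.7% higher in MDA-MB-468. Of 12 genes of NRF2 regulation, 3 (25%) were higher in BT-20 and 5 (41.7%) were higher in MDA-MB-468. The small MAF gene MAFG was at 46.5, 45.7, 21.2 and 19.1 FPKM, and the NRF2 relative NFE2L3 was at 6.07, 10.3, 24.7 and 26.2 FPKM. Of 16 thioredoxin and glutaredoxin genes, 5 (31.3%) were higher in each line, and of 20 tested genes of glutathione use and supply, 7 (35%) were higher in BT-20 and 6 (30%) were higher in MDA-MB-468. GSTM3, a mu-class glutathione S-transferase, was at 1.77, 1.05, 24.5 and 46.3 FPKM, so that like GSTP1 it was higher in MDA-MB-468 (limma adjusted p = 3.76e-48). Of 6 genes of selenoprotein synthesis 1 (16.7%) was higher in each line.

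The shRNA comparison asked whether the loss of QPRT went with a change of the same genes. Over both lines, 0 of the 33 members passed an adjusted p under 0.05 by limma, where 0.628% of all 14321 genes did, and limma-voom on recovered fragments also called 0. At an unadjusted p under 0.05 there were 4 members, against 4.8% of all genes, and all 4 were lower with QPRT shRNA: AKR1C2 by a log2 difference of -0.57 ± 0.20 (adjusted p = 0.335), AKR1B10 by -0.49 ± 0.19 (0.559), AKR1C3 by -0.56 ± 0.23 (0.642) and ME1 by -0.47 ± 0.23 (0.945). AKR1B1, an aldo-keto reductase that is no member but is on the list of other targets, was the one listed gene that passed (-0.68 ± 0.19, adjusted p = 0.0416), with 2932, 2581, 343 and 150 FPKM.

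Within a line there is 1 library per shRNA, so a difference has no replicate check and no p. On the log2(FPKM + 1) scale none of the 33 members tested changed at least 2-fold in BT-20, where 1.7% of all genes did, or in MDA-MB-468, where 1.89% did. GPX2, which was not tested, was at 0.95 on this scale in BT-20. It had 5 and 19 fragments there, and the counting interval of its log2 ratio was 0.42 to 3.66. In BT-20, 24 of the 33 members were lower with QPRT shRNA (43% of all genes were), with a median log2 fold change of -0.18 against 0.048 over all genes. In MDA-MB-468, 19 were lower (47.6% of all genes), with a median of -0.037 against 0.011. At 1.5-fold, 3 members had changed in BT-20 (8.98% of all genes) and 6 in MDA-MB-468 (9.17%). In BT-20 all 3 were lower (3.27% of all genes) and 0 higher (5.7%), and in MDA-MB-468 3 were lower (3.71%) and 3 higher (5.46%). The 2 lines moved 21 of the 33 members in opposite directions (54.6% of all genes), 11 were lower in both (17.7%) and 1, ABCC2, was higher in both.

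Among the members lower in BT-20 with QPRT shRNA, AKR1C2 went from 217 to 110 FPKM, a ratio of 1.97 and a log2 fold change of -0.97, just inside 2-fold, and at -1.05 it passed 2-fold once the trend of fold changes with GC content and length was removed. OSGIN1 went from 53.7 to 29.8 FPKM, 1.80 times lower, and AKR1C3 from 227 to 148 FPKM, 1.53 times lower. In MDA-MB-468 the same 3 genes went from 63.8 to 56.6, from 9.74 to 14.8 and from 3.09 to 1.89 FPKM. AKR1C2 and AKR1C3 were therefore lower in both lines, though the value of AKR1C3 in MDA-MB-468 came from about 32 and 19 fragments and its 95% counting interval of the log2 ratio, -1.57 to 0.20, included 0. OSGIN1 was higher with QPRT shRNA in MDA-MB-468, with an interval of 0.28 to 0.93.

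In MDA-MB-468, KEAP1 went from 215 to 346 FPKM (1.61 times higher), HMOX1 from 18.5 to 29.4 FPKM (1.59 times) and FTL from 282 to 436 FPKM (1.54 times). Lower were AKR1B10, from 84.5 to 46.8 FPKM (1.80 times), SLC7A11, from 7.56 to 4.27 FPKM (1.77 times), and ME1, from 18.0 to 10.4 FPKM (1.73 times). In BT-20 these 6 genes moved less, from 65.3 to 63.2 FPKM for KEAP1, 72.7 to 59.3 for HMOX1, 4478 to 3392 for FTL, 724 to 655 for AKR1B10, 13.1 to 16.6 for SLC7A11 and 52.6 to 45.6 for ME1. The direction was the same as in MDA-MB-468 for AKR1B10 and ME1 and the opposite for the other 4. AKR1B10 is also expressed in normal intestine, and the intestinal markers, of which 15 of 15 were lower with QPRT shRNA in each line, moved with it; their part in its difference was not tested. The counting intervals cover counting error only, since copies of 1 molecule made by PCR were counted as separate fragments.

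Of the 21 members with opposite directions, 10 had counting intervals that excluded 0 in both lines and kept both signs under the other scalings tried; these are 30.3% of the 33, against 13.3% of 14232 genes. The interval narrows with the number of fragments, so abundant genes meet this rule more easily. Both ferritin genes were lower with QPRT shRNA in BT-20 and higher in MDA-MB-468, FTH1 going from 999 to 865 and from 795 to 1100 FPKM, and so were PRDX2, PRDX5, GPX4, HMOX1 and OSGIN1. CAT, which went from 128 to 160 FPKM and from 206 to 149 FPKM, SLC7A11 and ABCC3 were higher in BT-20 and lower in MDA-MB-468. Whether the 2 lines differ in these responses was not tested, since each has 1 library per shRNA.

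PRDX1 and PRDX6 were lower in both lines, and PRDX1 alone of the family stayed so under every scaling tried. PRDX1 went from 624 to 518 FPKM (BT-20) and from 297 to 217 FPKM (MDA-MB-468; log2 fold changes -0.27 and -0.45, and -0.36 ± 0.19 by limma over both lines, which did not pass). PRDX6 was at -0.43 in BT-20 (284 to 210 FPKM) and at -0.02 in MDA-MB-468, where its sign depended on the scaling, and PRDX3 was at 0.06 and -0.04. In both lines the summed ferritin level moved more than the summed peroxiredoxin level, from 5477 to 4257 FPKM and from 1078 to 1536 FPKM for ferritin and from 1804 to 1518 and 1459 to 1535 FPKM for the peroxiredoxins. NFE2L2 itself moved little (135 to 126 and 98.2 to 95.1 FPKM), as did NQO1 (2597 to 2298 and 147 to 143 FPKM).

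**Figure D4:**
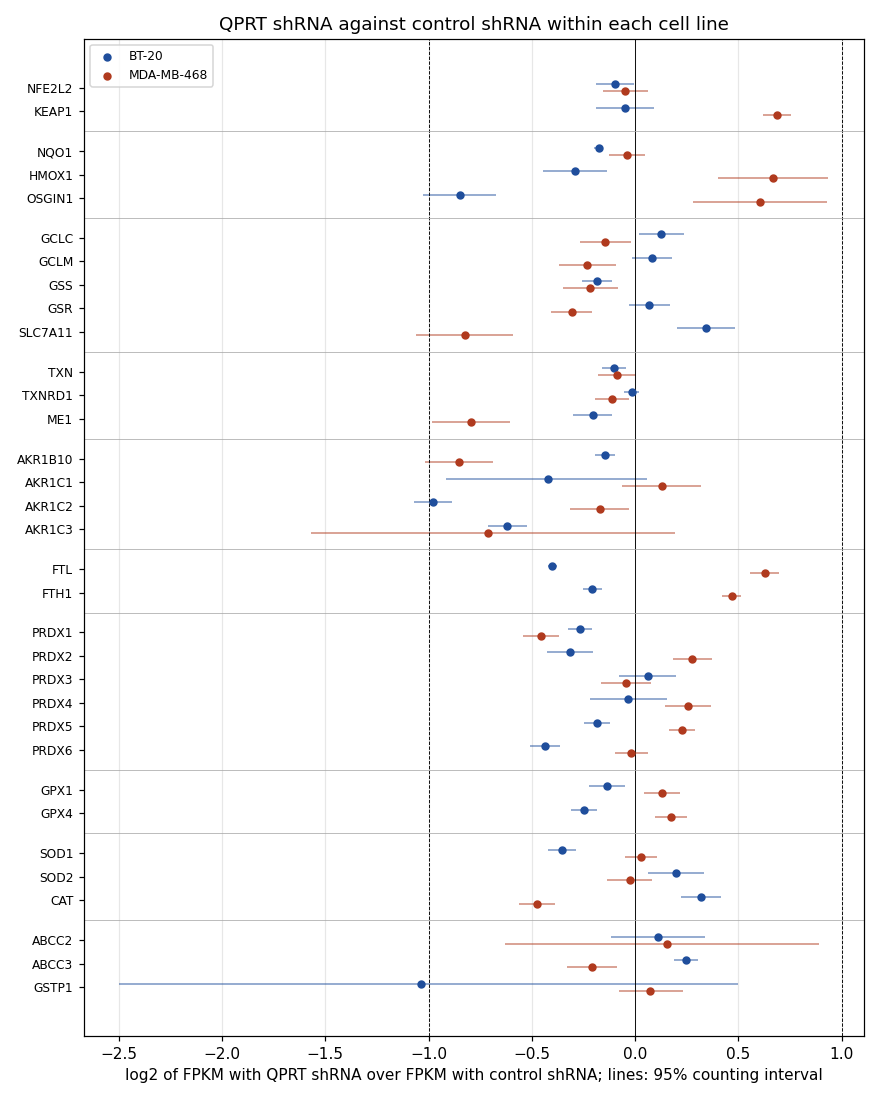
QPRT shRNA against control shRNA in each line for the 33 genes tested. The horizontal axis is the log2 ratio of FPKM, bars are 95% counting intervals of the recovered fragments, blue is BT-20, red MDA-MB-468, and dashed lines mark 2-fold. Most members lie within 2-fold in both lines; the ratio of GSTP1 in BT-20, from 1.66 to 0.809 FPKM, is past the dashed line but has an interval of -2.50 to 0.50, and on the log2(FPKM + 1) scale used for the counts it is -0.56.

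Fold changes within a line moved with the GC content of the transcripts, which ran from 37.6% to 63.4% over the members. Across the 33 genes, which share the same libraries and are not independent, Spearman's rho between GC content and fold change was -0.277 for BT-20 and 0.637 for MDA-MB-468, and over all genes it was -0.272 and 0.284. Of the 10 members with a GC content of at least 55%, QPRT shRNA went with higher levels of 9 in MDA-MB-468 and of 1 in BT-20. After a lowess trend on GC content and length was removed, 7 and 3 of the 10 were higher with QPRT shRNA and rho was 0.411 in MDA-MB-468 and 0.199 in BT-20. KEAP1, HMOX1, OSGIN1 and FTL are among these 10, and their fold changes in MDA-MB-468 were 0.68, 0.64, 0.56 and 0.63 before and 0.54, 0.50, 0.44 and 0.53 after the removal. The part of GC content in these responses was not tested further.

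**Figure D5:**
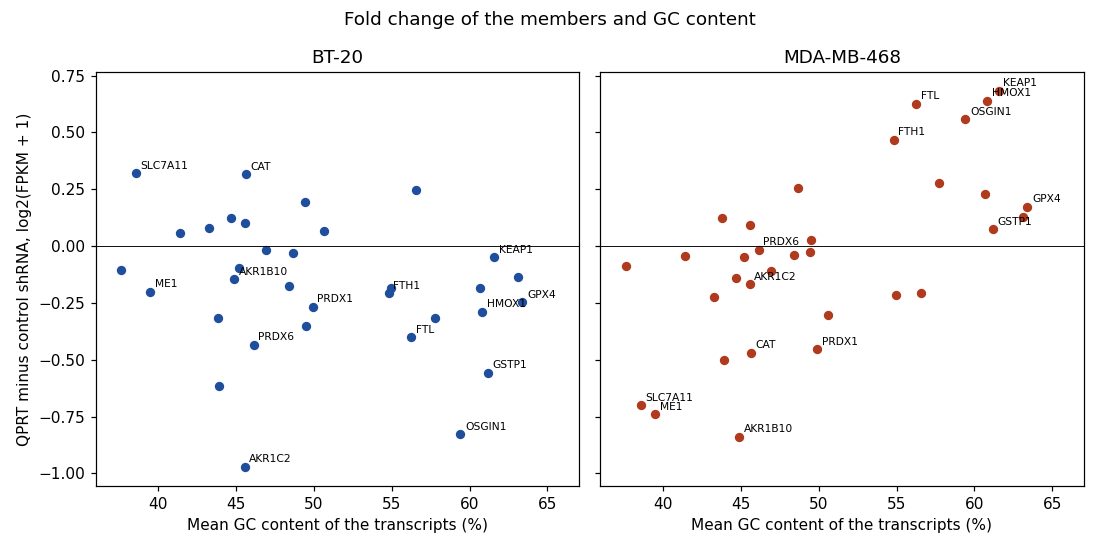
Fold change with QPRT shRNA, in log2(FPKM + 1), against the mean GC content of the transcripts in percent for the 33 genes tested, with BT-20 on the left and MDA-MB-468 on the right. Each point is a gene and some are named. In MDA-MB-468 the genes of high GC content, KEAP1 (0.68) and FTL (0.63) among them, lie above those of low GC content such as SLC7A11 (-0.70) and ME1 (-0.74); Spearman's rho is 0.637 there and -0.277 in BT-20.

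Under all 4 other scalings tried, which were TPM, upper quartile scaling, a smaller pseudocount (0.1) and removal of the GC and length trend, 8 members stayed lower with QPRT shRNA in both lines: NFE2L2, NQO1, GSS, ME1, AKR1B10, AKR1C2, AKR1C3 and PRDX1. The sign in BT-20 depended on the scaling for 9 members, KEAP1, GCLC, GCLM, GSR, TXNRD1, PRDX3, PRDX4, GPX1 and ABCC2, and in MDA-MB-468 for 5, TXN, PRDX3, PRDX6, GPX1 and GSTP1.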

How the data were processed

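The deposited table holds FPKM values, which the authors computed per annotated gene after trimming adaptors and low-quality reads of Illumina NovaSeq libraries. The submitters' processing notes name TopHat2 2.0.12 and HTSeq 0.6.1; the genome build, annotation and strand setting are not given in the sources used here. Genes were named by Ensembl identifier (49414 of 50653 had a symbol), and coordinates, lengths and GC content are from GENCODE 29 (GRCh38), which covered 49839 genes.

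Fold changes are differences of log2(FPKM + 1), which understate changes of low genes, over genes whose mean FPKM reached 1. The limma 3.58.1 fit (R 4.3.3) had the cell line and the shRNA as terms, eBayes with a trend and Benjamini-Hochberg adjustment over 14321 genes, and its prior degrees of freedom were infinite, so a gene's standard error was set by genes of like expression. FPKM multiplied by mean transcript length gave whole fragments within 0.02 for 87.2% to 87.6% of values above 0 (97.5% to 97.8% for single-transcript genes); Clopper-Pearson 95% intervals use these fragments and cover counting error only. The depth was like in all libraries. Tested on simulated data, the fit recovered the changed genes but called genes of few fragments too often.

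The paper's count test needs counts and was not run on the FPKM values. The members and lists were chosen with earlier results of these data known. Values in all libraries are given for members among the 12 largest called differences, for the regulators, the peroxiredoxins and members under a mean FPKM of 1; others are given where they fill a count or a role. Of other lists, up to 5 genes with the largest line difference could be named; values of some single genes outside the members are not reported here, though counts and medians of their lists include them. Alternatives were other scalings, filters, a 1.5-fold threshold, no block, no trend, limma-voom and leaving out each library (and then the shRNA term). Scripts used Python 3.11.15 with scipy 1.17.1, pandas 2.3.3, statsmodels 0.14.6, numpy 2.4.6 and matplotlib 3.10.9.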

Additional observations from a re-analysis of the deposited data

Results flagged for a closer look

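In 10 of 33 members (30.3%) both lines responded to QPRT shRNA in opposite directions, with a counting interval that excluded 0 in each line and the same signs under every scaling tried. The same held for 13.3% of 14232 genes, and opposite signs of any size for 54.6% of all genes tested. With 1 library per line and shRNA, the difference was not tested. On the log2(FPKM + 1) scale, 7 were lower in BT-20 and higher in MDA-MB-468: FTL by -0.40 and 0.63, FTH1 by -0.21 and 0.47, HMOX1 by -0.29 and 0.64, OSGIN1 by -0.83 and 0.56, PRDX2 by -0.31 and 0.28, PRDX5 by -0.18 and 0.23, and GPX4 by -0.25 and 0.17. The other 3 were higher in BT-20 and lower in MDA-MB-468: CAT by 0.32 and -0.47, SLC7A11 by 0.32 and -0.70, and ABCC3 by 0.25 and -0.21. After the GC and length trend was removed, the values in BT-20 and MDA-MB-468 were -0.04 and 0.09 for PRDX5, -0.07 and 0.005 for GPX4 and 0.01 and -0.55 for SLC7A11.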

How the results depend on the processing

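The count of members at 2-fold or more with QPRT shRNA in BT-20 was 0 and became 1 (AKR1C2) with the GC and length trend removed and 3 at a 1.5-fold threshold, and in MDA-MB-468 it became 6 at 1.5-fold. With no filter on low values, 0 members differed between the lines, 0 higher in BT-20 and 0 higher in MDA-MB-468 (limma adjusted p of the 22 between 0.129 and 0.442), as of all genes, and 20 members had an unadjusted p under 0.05. Leaving out 1 library in turn, with no shRNA term in the fit, gave 15 to 21 members that differed, 11 to 16 higher in BT-20 (lowest without BT-20 control shRNA) and 4 to 5 higher in MDA-MB-468. The line difference changed sign for 4 members that were not called: PRDX5 (-0.0663 to 0.161), GPX1 (-0.0230 to 0.112), FTH1 (-0.225 to 0.243) and GSR (-0.0835 to 0.221) with a library left out, and GSR (-0.0813) and FTH1 (-0.156) with the trend removed. With other scalings, a higher filter, no block, no trend or limma-voom, 22 to 25 members differed between the lines and 0 responded to shRNA over both. The fit over both lines pairs the libraries by cell line; there is no pairing by replicate number, since each group has 1 library. Depth limits SRXN1, GPX2, GSTP1 (in BT-20), AKR1C3 and ABCC2 (both in MDA-MB-468), and 1 library per group limits every shRNA difference within a line.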
